A study of Homo sapiens with 4 samples.

Results

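This report describes 10 genes that encode chains of fibrillar and microfibrillar collagens, taken by gene symbol from the 58735 genes measured in 4 RNA-seq libraries of human glioblastoma cell lines. The genes were COL1A1 and COL1A2 (type I), COL3A1 (type III), COL5A1, COL5A2 and COL5A3 (type V), COL11A1 (type XI), and COL6A1, COL6A2 and COL6A3 (type VI). The choice was made by symbol, with no threshold on a measured value, but with earlier results of these data known. U251 and U87 are established human glioblastoma lines, grown in serum-containing medium. The 4 groups were U251 Control, U251 Bru, U87 Control and U87 Bru, with 1 library each. Bru is brusatol, a herbal quassinoid, and Bru cells had been treated for 48 h at the IC50, whereas Control cells were not treated with Bru. The labels give no genetic change in any group and no second culture, so no difference below has a replicate check and each ratio compares libraries.

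Fibrillar collagens are secreted as triple helices whose chains repeat glycine regularly along their length, and they assemble outside the cell into banded fibrils. Type I, with α1 and α2 chains, and type III, a homotrimer of α1 chains, make up most of the fibril mass of connective tissue, and types V and XI lie inside fibrils, help to start them and limit their width. Type VI collagen needs an α1, an α2 and usually an α3 chain, and forms beaded microfibrils that link cells and basement membranes to the fibrils. Normal brain parenchyma holds little fibrillar collagen, which there lies mainly around vessels and in the meninges, whereas glioblastoma lines in culture commonly express several collagens.

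The repeat is visible in the coding sequence. The lines that follow give, for the type I chains, whose balance differed between the lines, 1 exon of 54 bases from inside the helix, 5′ to 3′ on the coding strand, with the glycine codon that leads each triplet in capitals. The COL1A1 exon is exon 8 at chr17:50197949-50198002 on the minus strand, and the COL1A2 exon is exon 8 at chr7:94404693-94404746 on the plus strand (GRCh38, GENCODE release 29).
COL1A1: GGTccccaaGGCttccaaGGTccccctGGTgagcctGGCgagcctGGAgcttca
COL1A2: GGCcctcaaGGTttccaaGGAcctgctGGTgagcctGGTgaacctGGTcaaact
Each exon starts on a glycine codon and holds 6 of them, and the pair shared 40 of 54 bases.

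The exons of the type V and type XI chains that fell in U251 are shown in the same way. They are COL5A1 exon 15 at chr9:134753850-134753903 on the plus strand, COL5A2 exon 10 at chr2:189085719-189085772 on the minus strand and COL11A1 exon 15 at chr1:103008463-103008516 on the minus strand.
COL5A1: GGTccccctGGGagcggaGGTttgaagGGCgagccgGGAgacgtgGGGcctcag
COL5A2: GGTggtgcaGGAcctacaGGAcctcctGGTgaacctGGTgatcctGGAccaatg
COL11A1: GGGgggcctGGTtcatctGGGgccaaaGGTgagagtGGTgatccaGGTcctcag
The COL5A1 exon shared 28 of 54 bases with the COL11A1 exon and 24 with the COL5A2 exon, with no gap allowed. Over such exons of the other members it shared from 22 bases (COL3A1) to 37 (COL5A3), with 30 for COL6A2. The counts for COL11A1 and COL5A2 therefore do not measure how related the chains are.

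The type VI exons come from a much shorter helix. They are COL6A2 exon 6 at chr21:46115872-46115925 on the plus strand and COL6A3 exon 23 at chr2:237357338-237357391 on the minus strand, and they are shown because COL6A3 parted from COL6A2 between the lines.
COL6A2: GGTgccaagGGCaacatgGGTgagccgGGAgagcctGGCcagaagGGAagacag
COL6A3: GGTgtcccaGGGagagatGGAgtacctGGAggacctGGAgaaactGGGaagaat
In the transcript with the longest coding sequence, the longest unbroken run of glycine-led triplets was 337 to 343 triplets in the 7 fibrillar genes. It was 87 triplets in COL6A1, 87 in COL6A2 and 45 in COL6A3. Exons of 54 bases were the commonest size inside the run in the fibrillar genes, from 21 in COL1A1 to 31 in COL5A3 and COL11A1. Exons of 63 bases led in type VI, with 6 in COL6A1, 6 in COL6A2 and 4 in COL6A3. COL6A3 had the longest coding sequence, at 3177 codons, of which 4.25% lay in that run, against 74.5% of the 1366 codons of COL1A2.

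The values are FPKM, fragments scaled to gene length and to a size per library, as deposited by the authors. Levels of different genes can be compared only on the deposited gene lengths. Whole reads could be recovered from the FPKM, and the libraries held 17083896 to 21453561 reads on genes. Intervals given with a ratio are exact 95% intervals from these reads and cover counting error only. The label glioblastoma was checked with 8 marker genes. VIM, an intermediate filament of glial and mesenchymal cells, had FPKM of 606 to 701 in the 4 libraries, and CD44, a surface receptor, had 94.5 to 125. The neural stem cell factor SOX2 was at 129 in U251 Control and 91.2 in U251 Bru, but had 0 reads in the U87 Control library and 2 after Bru. GFAP, the astrocyte filament, was at 2.42 in U251 Control and 0.215 in U87 Control. In U87, SOX2, FABP7 and S100B had 0 to 2 reads in each library, whereas the progenitor filament NES had 147 reads under Control and 55 under Bru, and OLIG2 had 38 and 61. In U251, NES was at 125 FPKM in Control and 50.6 in Bru, OLIG2 had 2 and 4 reads, and S100B had 9 and 0.

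The collagens carried a smaller share of the RNA after Bru in both lines. Together the 10 genes held 0.322% of reads under Control and 0.145% under Bru in U251. In U87 they held 0.282% in Control and 0.199% in Bru. Their summed FPKM in Bru was 46.5% of Control in U251 and 73.7% of Control in U87. In bulk RNA, fewer cells of a type and less RNA per cell cannot be told apart. By type, the sum in U251 Bru was 32.2% of Control for type I, 37.7% for type V, 10.4% for type XI and 60.8% for type VI. In U87 Bru it was 33.5% for type I, 72.2% for type V and 80.8% for type VI. Type VI therefore made up a larger share of the collagen signal after Bru, at 62.3% against 47.6% in U251 and 86.9% against 79.2% in U87.

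A gene was called lower or higher, and is said below to have fallen or risen, where the ratio of FPKM + 0.1 passed 2-fold in either direction (an absolute log2 ratio above 1) and its mean FPKM over the 4 libraries was at least 1. Of the 10 collagens 8 passed this minimum. COL3A1 and COL5A3 did not, and COL11A1 passed through U251 Control alone. In U251, 4 of the 8 fell after Bru and 0 rose, where 5.44% of the 12949 genes past the minimum fell and 3.36% rose. In U87, 2 of the 8 fell and 0 rose, where 1.41% of all genes fell and 1.92% rose. The members and the lists below were chosen with earlier results of these data known, so such counts are descriptive and no test. For the 8, the median log2 ratio in U251 was -1.11 and in U87 it was -0.45, beside -0.03 and -0.04 over all genes past the minimum. Rises made up 38.2% of all calls in U251, and 48.5% with the total taken without collagen genes, and they made up 57.6% in U87, 68.9% with scaling to the 75th percentile, 45.8% with a minimum of 5 and 33.3% among protein-coding genes. The total without collagen genes, and that without mitochondrial genes below, counted reads on genes in place of the deposited size per library. The effect of that change was not separated from that of leaving genes out.

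COL1A2 of type I collagen fell in both lines, and COL1A1 fell in U87. COL1A2, which encodes the α2 chain (ENSG00000164692, chr7:94394561-94431232, plus strand), was at 133 FPKM in U251 Control and 42.4 in U251 Bru, from 31036 and 8765 reads. It was at 23.5 in U87 Control and 5.64 in U87 Bru, from 4735 and 1096 reads. Both Bru libraries were thus well under their Control, and COL1A2 went from rank 252 of all genes to rank 973 in U251 and from 2110 to 6767 in U87. The log2 ratio in U251 was -1.64 and in U87 it was -2.04, with reads-based intervals of -1.68 to -1.61 and -2.15 to -1.96. COL1A2 was the member with the lowest ratio in U87.

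COL1A1, which encodes the α1 chain (ENSG00000108821, chr17:50183289-50201632, minus strand), was at 0.981 FPKM in U251 Control and 0.665 in U251 Bru, from 202 and 121 reads. It was at 21.1 in U87 Control and 9.31 in U87 Bru. U251 therefore had little COL1A1 RNA in either library. The log2 ratio was -1.17 in U87, with an interval of -1.27 to -1.09, and COL1A1 fell there. In U251 it was -0.50, with an interval of -0.90 to -0.23, which did not reach the 2-fold limit. COL3A1, the only chain of type III collagen (ENSG00000168542, chr2:188974320-189012746, plus strand), had 0 reads in the Control library of U251 and 1 after Bru, and 10 and 7 in those of U87. Its U87 levels of 0.0813 and 0.0590 FPKM differed within counting error, with a log2 interval from -2.09 to 1.08, and no fold can be given in U251.

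Of the type V chains, COL5A1 and COL5A2 fell in U251. COL5A1, the α1(V) chain (ENSG00000130635, chr9:134641774-134844843, plus strand), was at 22.6 FPKM in U251 Control and 8.30 in U251 Bru, and at 8.65 in U87 Control against 5.29 after Bru. The log2 ratio in U251 was -1.43 and in U87 it was -0.70, with intervals of -1.53 to -1.37 and -0.82 to -0.60. The Control level of U87 lay close to the Bru level of U251. COL5A2, the α2(V) chain (ENSG00000204262, chr2:189031896-189225312, minus strand), was at 56.0 in U251 Control and 21.3 in U251 Bru, and at 14.1 in U87 Control against 11.1 after Bru. The log2 ratio in U251 was -1.39 and in U87 it was -0.35, with intervals of -1.45 to -1.33 and -0.45 to -0.25. Neither gene passed the 2-fold limit in U87. COL5A3, a further type V chain of restricted expression (ENSG00000080573, chr19:9959561-10010471, minus strand), had 0, 2, 9 and 15 reads in U251 Control, U251 Bru, U87 Control and U87 Bru. Its U87 log2 interval ran from -0.50 to 2.16, so no difference was detectable at this depth.

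COL11A1, the α1(XI) chain of cartilage fibrils and of several tumour stromas (ENSG00000060718, chr1:102876467-103108872, minus strand), had the lowest Bru to Control ratio of the 8 in U251. It was at 6.83 FPKM in U251 Control and 0.712 in U251 Bru, from 1303 and 120 reads. In U87 there were 4 reads under Control and 2 under Bru. The U251 log2 ratio was -3.09, and from reads the level was 9.59-fold lower, with a log2 interval of -3.54 to -2.99. The U87 interval, from -4.41 to 1.86, covers a fall as large as that of U251 as well as a rise.

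None of the type VI chains passed the 2-fold limit in either line. COL6A1, the α1(VI) chain (ENSG00000142156, chr21:45981737-46005050, plus strand), was at 98.6 FPKM in U251 Control against 64.6 after Bru, and at 92.6 in U87 Control against 78.2 after Bru. Its log2 ratio was -0.61 in U251, with an interval of -0.65 to -0.56, and -0.24 in U87, with an interval of -0.29 to -0.20. COL6A2, the α2(VI) chain (ENSG00000142173, chr21:46098097-46132849, plus strand), was at 100.1 in U251 Control against 56.1 after Bru, and at 109.8 in U87 Control against 92.3 after Bru. Both Bru libraries were below their Control, with a log2 ratio in U251 of -0.84 and in U87 of -0.25 and intervals of -0.88 to -0.79 and -0.29 to -0.21. COL6A1 and COL6A2 lie on the same strand with 93046 bases between them and no protein-coding gene in the gap. Their patterns over the 4 libraries were the closest of any pair of members past the minimum. The root mean square difference was 0.185 on the log2 scale. Genes that are no members lay closer to COL6A1, with FBXO5 at 0.01 and VCP and PRKD3 at 0.02. COL6A3, the long α3(VI) chain (ENSG00000163359, chr2:237324003-237414375, minus strand), was at 0.308 in U251 Control and 0.360 in U251 Bru, from 127 and 131 reads, and at 55.4 in U87 Control and 37.8 in U87 Bru. Its log2 ratio was 0.17 in U251, with an interval of -0.14 to 0.59, and -0.55 in U87, with an interval of -0.58 to -0.52.

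The ratios of the lines were then set against each other, with an interval from the reads of all 4 libraries that covers counting error only. The U87 log2 ratio lay above the U251 one by 0.74 for COL5A1 (0.60 to 0.87), by 1.04 for COL5A2 (0.92 to 1.16), by 0.36 for COL6A1 (0.30 to 0.43) and by 0.58 for COL6A2 (0.52 to 0.65). It lay below the U251 one for the type I chains, with differences of -0.62 for COL1A1 (-0.95 to -0.28) and -0.41 for COL1A2 (-0.51 to -0.31), and for COL6A3, with -0.77 (-1.13 to -0.42). For COL11A1 the difference of 2.32 had an interval from -0.15 to 4.78. With 1 library in each group, variation between cultures is not part of these intervals.

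The Control libraries of the lines expressed different sets of collagens, with log2 ratios of U87 to U251 from -5.80 for COL11A1 to 7.09 for COL6A3. Between them, 2 of the 8 genes were higher in U87 and 4 were lower, where 14.5% of all genes were higher and 16% were lower. COL6A3 was 180-fold higher in U87 Control than in U251 Control, with an interval of 151 to 216, and COL1A1 was 21.5-fold higher. COL11A1, with 4 reads in U87 Control, was 281-fold lower in U87 from reads, with an interval of 109 to 1032, and its log2 ratio ran from -7.64 to -2.93 over the alternatives tried. COL1A2 was 5.65-fold lower from reads. COL5A1 and COL5A2 were also lower in U87, with log2 ratios of -1.38 and -1.98. COL6A1 and COL6A2 differed little, at -0.09 and 0.13. COL3A1 and COL5A3 had 0 reads in U251 Control, and against the floor of 3 reads per library their 10 and 9 reads in U87 Control were at least 3.87-fold and 3.48-fold higher, with lower counting limits of 2.60-fold and 2.29-fold from the exact interval. The Control library of each line serves both this comparison and the ratio of Bru to Control in that line, so the ratios of a gene in the comparisons are not independent.

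Levels were ordered on the deposited gene lengths. These were from 1.05 times (COL5A2) to 2.06 times (COL1A2) the length of the transcript with the longest coding sequence. The order was not recomputed with transcript lengths, so places close in FPKM can depend on the length used. In U251 Control the order of levels was COL1A2, COL6A2, COL6A1, COL5A2, COL5A1, COL11A1, COL1A1 and COL6A3. The neighbours COL6A2 and COL6A1 did not differ there beyond counting error. In U251 Bru, COL6A1 and COL6A2 stood ahead of COL1A2, and COL11A1 and COL1A1 did not differ. In U87 Control the order was COL6A2, COL6A1, COL6A3, COL1A2, COL1A1, COL5A2 and COL5A1. In U87 Bru, COL5A2 and COL1A1 stood ahead of COL1A2, which did not differ from COL5A1. In U87 the neighbours among COL3A1, COL5A3 and COL11A1, at 15 reads or fewer, did not differ beyond counting error, but in U87 Bru the interval of COL5A3, from 0.0715 to 0.211 FPKM, lay above that of COL11A1, from 0.00153 to 0.0457.

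Because each collagen trimer uses its chains in set proportions, the balance between partner chains was compared within each library. For type I, COL1A2 was 135-fold above COL1A1 in U251 Control (118 to 156) and 63.8-fold above it in U251 Bru (53.3 to 76.9). In U87 Control COL1A2 was at 1.11 times COL1A1 (1.07 to 1.16), and in U87 Bru at 0.606 times (0.561 to 0.655). The type I helix most often holds more α1 than α2 chains, and in neither U251 library was COL1A1 RNA near the level of COL1A2. With the length of the transcript with the longest coding sequence in place of the file's length, an alternative chosen after seeing the data, the ratios of COL1A2 to COL1A1 became 191, 90.1, 1.57 and 0.856 in the same order, so that each became larger by the same factor and the U87 Bru ratio stayed below 1.

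For type V, COL5A2 was at 2.47 times COL5A1 in U251 Control against 2.57 times after Bru, and at 1.63 times in U87 Control against 2.09 times after Bru, so the α2 chain stood above α1 in every library. In U87, COL5A1 was 117-fold above COL5A3 in Control and 41.5-fold above it in Bru. For type VI, the ratio of COL6A1 to COL6A2 stayed near 1, at 0.984 (0.959 to 1.01) in the U251 Control library, 1.15 after Bru, and 0.843 and 0.847 in the same libraries of U87. COL6A1 was 320-fold above COL6A3 in U251 Control and 179.5-fold above it in U251 Bru, but at 1.67 times COL6A3 in U87 Control against 2.07 times after Bru. The α5(VI) and α6(VI) genes, whose chains can take the place of α3, had a summed FPKM of 0 in 3 libraries and 0.0228 in U87 Control.

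**Figure D1:**
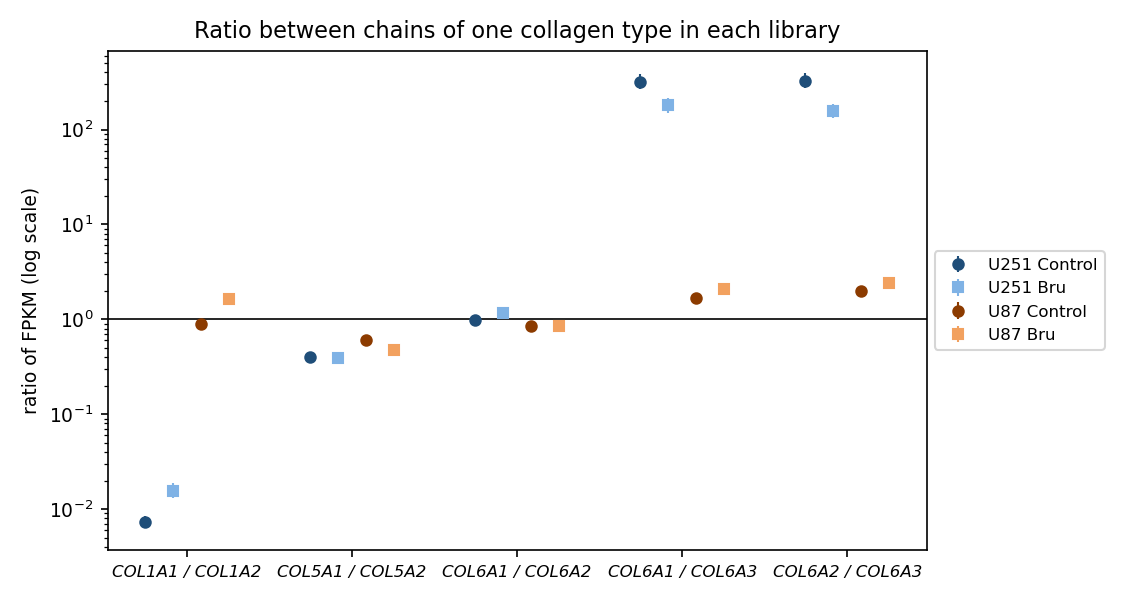
Ratio of FPKM between chains of one collagen type on a log axis, for each of the 4 libraries, with bars for the 95% counting interval. COL1A1 / COL1A2 and the ratios to COL6A3 lie far from 1 in both U251 libraries and near 1 in both U87 libraries, whereas COL6A1 / COL6A2 lies near 1 in all 4.

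For COL11A1 and COL6A3, which had the lowest and the highest ratio between the Control libraries on FPKM + 0.1, the 250 bases before the RefSeq start are shown (GRCh38.p14), 5′ to 3′ on the strand of the gene, with matches to the searched motifs in capitals. The COL11A1 promoter lies at chr1:103108523-103108772 and the COL6A3 promoter at chr2:237414165-237414414, both on the minus strand. On the gene coordinates of the deposited values, the COL11A1 window lies inside the gene and most of the COL6A3 window does too.
COL11A1: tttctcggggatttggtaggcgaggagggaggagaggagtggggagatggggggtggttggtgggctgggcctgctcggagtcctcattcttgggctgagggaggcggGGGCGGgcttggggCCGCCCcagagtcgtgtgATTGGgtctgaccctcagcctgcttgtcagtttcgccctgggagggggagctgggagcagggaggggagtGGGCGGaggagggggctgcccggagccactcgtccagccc
COL6A3: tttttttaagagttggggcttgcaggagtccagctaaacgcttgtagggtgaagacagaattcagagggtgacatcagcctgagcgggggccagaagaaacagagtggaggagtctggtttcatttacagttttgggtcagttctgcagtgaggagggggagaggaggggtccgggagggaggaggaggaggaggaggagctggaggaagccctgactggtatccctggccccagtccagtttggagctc
RefSeq promoters were at hand for 5 members, COL11A1, COL5A1, COL5A3, COL6A2 and COL6A3. The motifs, read on both strands, were TATAAA (the TATA box), CCAAT (bound by NF-Y), GGGCGG (the GC box bound by SP1), CAGACA (a SMAD box) and TGACTCA (an AP-1 site), and none of them contains another. GGGCGG was found in 4 of the 5 and in 42.3% of 27305 promoters, with 3 matches in COL11A1, 2 in COL5A1, 1 in COL5A3 and 4 in COL6A2. CCAAT was found in COL11A1 and COL5A3, and in 33.0% of all promoters. TATAAA was found in COL6A2 alone, and in 11.1% of all promoters. CAGACA and TGACTCA were in 0 of the 5, and in 13.6% and 4.16% of all promoters. The COL6A3 window held none of the motifs and had 56.0% G and C, and the other 4 had 66.0% to 79.6%, beside a median of 58.0% over all promoters.

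The other collagens were counted in the same way. Of 34 further collagen genes 14 passed the minimum, of which 7 fell and 2 rose in U251, and 1 fell and 0 rose in U87. Over all genes past the minimum, 5.44% fell and 3.36% rose in U251, and 1.41% fell and 1.92% rose in U87. The median in U251 was -0.95 and in U87 -0.14. In U251 the basement membrane chains COL4A1 and COL4A2 fell, with log2 ratios of -1.28 and -1.23, and COL8A1, of short-chain networks, fell with -1.76. In U87 these were at -0.18, -0.06 and -0.88. Of the fibril-associated collagens, which sit on the surface of fibrils, COL9A2 and COL21A1 were called lower in U251 with -1.12 and -1.50, but passed the minimum through U251 Control alone. COL12A1, named after its values were seen and the most abundant of the list in U251, fell there from 51.5 to 25.3 FPKM, with -1.03. Its interval, from -1.07 to -0.98, includes the 2-fold limit. COL16A1 rose in U251 with 1.68, from 0.288 FPKM in Control to 1.15 in Bru. With a pseudocount of 1 the list had 1 fall and 0 rises in U251, in place of 3 and 1. It had 2 falls with the median of all genes set to 0, with scaling to the 75th percentile and without mitochondrial genes in the total. COL16A1 was far higher in U87, at 11.9 and 11.4. The transmembrane COL13A1 fell in both lines, with -1.91 in U251 and -1.09 in U87, and the U87 call was lost with a pseudocount of 1 and with scaling to the 75th percentile. In U87 it went from 83 to 32 reads, and it passed the minimum through its U251 levels. The transmembrane COL17A1 was called higher in U251 with 1.45, but passed the minimum through U251 Bru alone, and lost the call with a pseudocount of 1. COL18A1, the source of endostatin, was at -0.80 in U251 and -0.33 in U87. COL27A1, a fibrillar collagen that is no member, was at -0.42 in both lines.

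Some of the genes whose products fold, export and mature procollagen fell in U251. Among all genes past the minimum, 5.44% fell in U251 and 1.41% in U87. Of 22 folding and export genes past the minimum, 5 fell in U251 and 0 in U87, with medians of -0.58 and -0.26. They were P4HB, the β subunit of prolyl 4-hydroxylase (-1.29), the lysyl hydroxylase PLOD1 (-1.27), its partner P3H4 (-1.20), and, chosen after their values were seen, the collagen galactosyltransferase COLGALT1 (-1.17) and the prolyl isomerase FKBP10 (-1.06). Without mitochondrial genes in the total this list had 4 falls in U251, and the interval of FKBP10, from -1.15 to -0.97, includes the 2-fold limit. SERPINH1, the collagen chaperone HSP47, was also named after its values were seen, and was at -0.85 in U251 and -0.66 in U87. Of 10 genes for cleavage and cross-linking, 4 fell in U251 and 0 in U87, with medians of -0.63 and -0.47. For lists of these sizes, 0 falls in U87 is near the share over all genes. LOXL1, LOXL2 and LOXL3, lysyl oxidase family enzymes, were at -1.52, -1.28 and -1.06 in U251 and at -0.63, -0.57 and -0.56 in U87. The fourth, named after its values were seen, was the transglutaminase TGM2 at -1.21. TGM2 went from 98 to 29 reads in U251, and passed the minimum through its U87 levels of 44.3 and 41.0 FPKM. With a pseudocount of 1 the cleavage and cross-linking list had 2 falls in U251, and without mitochondrial genes in the total it had 3.

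Of 6 fibril partners past the minimum, 4 fell in U251, and 2 fell and 1 rose in U87. The shares over all genes were 5.44% lower in U251, and 1.41% lower and 1.92% higher in U87. Fibronectin (FN1), on which fibrils assemble, was at 15.7 FPKM in U251 Control against 5.66 after Bru, and at 51.3 in U87 Control against 17.1 after Bru, and fell in both lines with log2 ratios of -1.45 and -1.58. SPARC, a collagen-binding glycoprotein, fell with -1.60 and -1.02, and the list had 1 fall in U87 under 4 of the other scalings. THBS2, a matrix thrombospondin, fell in U251 with -1.69 and was at -0.42 in U87. The gene that rose in U87, named after its values were seen, was THBS1, from 28 to 78 reads, and with a pseudocount of 1 there was no rise. THBS1 passed the minimum through its U251 levels of 60.8 and 42.4 FPKM.

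The next lists are also set beside falls of 5.44% of all genes in U251 and 1.41% in U87. Of 9 receptors and uptake genes, 3 fell in U251 and 0 in U87, and without mitochondrial genes in the total 2 fell in U251. The 3 were the integrin β1 chain ITGB1 (-1.39), the collagen-binding kinase DDR1 (-1.07) and the endocytic receptor MRC2 (-1.76). In U87 these genes were at -0.56, -0.29 and -0.71. Of 9 collagenolytic enzymes, the gelatinase MMP2 (-1.18) and the membrane-bound MMP14 (-1.48) fell in U251, against -0.32 and -0.33 in U87, and MMP1, an interstitial collagenase with 5 reads or fewer in each U251 library, was at -0.77 in U87. Of 26 regulators of collagen transcription past the minimum, 1 fell in U251 and 0 in U87, and the medians were -0.09 and -0.09. Both counts were near the shares over all genes. The gene that fell was CTGF, a matricellular growth factor, with -1.46 in U251 and -0.13 in U87. PRRX1, a mesenchymal homeobox factor, was at -0.43 and -0.85, and KLF4 was at 0.66 and 0.51.

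Genes with a pattern most like that of a member were sought among 10843 protein-coding genes that are no members, by the root mean square difference of centred log2 levels over the 4 libraries. Nearest to COL1A1 were CEMIP and FCRLA, both at 0.17, and TMEM158 at 0.21, but FCRLA was at 0.0146 and 0 FPKM in U251, where the added 0.1 sets its pattern. Nearest to COL1A2 were C1QL1 at 0.27, COL13A1 at 0.36 and SPARC at 0.42. Nearest to COL6A1 were FBXO5 at 0.01, and VCP and PRKD3, both at 0.02. Among the members, COL1A1 and COL1A2 were far apart, at 3.36, and COL6A3 and COL11A1 were farthest, at 5.65.

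Markers of cells that make fibrillar collagen in tissue were counted beside these values. Of 10 fibroblast and pericyte markers 7 passed the minimum, of which 1 was called lower in each line. Of all genes past the minimum, 5.44% were lower in U251 and 1.41% in U87. PDGFRA was at -1.28 in U251 and passed the minimum through U251 Control alone, and THY1 was at -1.16 in U87, from 92 to 34 reads, and passed through its U251 levels. The summed FPKM of the list was 29.3 in U251 Control against 23.0 after Bru, and 52.1 in U87 Control against 38.8 after Bru. The largest part of the sum was 1 gene in each line. In U251 it was THY1, at 17.5 in Control and 10.8 in Bru, with S100A4 at 4.70 and 8.16. In U87 it was CSPG4, at 40.1 and 29.2, with ACTA2 at 3.40 and 3.84, FAP at 3.14 and 2.59 and PDGFRB at 2.74 and 1.66. DCN, decorin, had 0 reads in all 4 libraries and LUM, lumican, had 0 in U251 and 7 and 2 in U87. Of 8 endothelial and immune markers 1 passed the minimum, and the list summed to 1.31 to 4.44 FPKM, with CD3E and AIF1 at 0 in all libraries. The part of these sums in the collagen values was not tested. Antisense genes overlap 4 members, and the kit is not stated to keep the strand, but their own reads were few, at most 18 for AC002074.1 in COL1A2 and 10 for COL5A1-AS1. None of the 50-base stretches of the member transcripts was shared with another gene.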

How the data were processed

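RNA of U251 and U87 cells was extracted with Trizol, and the NEB Next Ultra kit and paired-end Illumina reads were used, per the labels. The authors deposited FPKM per gene and library with gene lengths. The submitters' processing notes name HISAT2 2.0.5, StringTie 1.3.3b, featureCounts 1.5.0-p3, DESeq2 1.16.1 and the build hg18, with no roles, and further settings are not given in the sources used here. The coordinates in the files are those of GENCODE release 29 (GRCh38) for 58735 of 58735 genes.

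The product of FPKM and gene length came in whole steps of 1 read for 100% of values in each library (tolerance 0.01 reads, largest deviation 4.35e-05), and gave reads per gene and the library size inside the FPKM, from 17406238 to 20974002. In U251 this size was 20974002 in Control and 18533374 in Bru, beside 21453561 and 17847910 reads on genes. In U87 it was 18070193 and 17406238, beside 18260975 and 17083896. Ratios of FPKM follow these sizes and not the reads on genes. Genes with at least 1 read numbered 24388 to 25464 per library. The floor of 3 reads lies at 0.143 to 0.172 FPKM for a gene of 1 kb. Mitochondrial genes took 2.43% to 4.06% of reads.

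Log2 ratios used FPKM + 0.1 and a minimum mean FPKM of 1, with a call above an absolute log2 ratio of 1. Intervals of ratios from reads used Clopper-Pearson limits, intervals of levels used exact Poisson limits, and differences between lines used Wald limits. No p-value was computed, since each group holds 1 library. Named genes were the 10 members, the 3 genes of each of 14 lists with the largest mean absolute log2 ratio over both lines, and the 3 genes nearest in pattern to COL1A1, COL1A2, COL3A1 and COL6A1. Not every gene of that rule is described, and the genes nearest to COL3A1, whose pattern near the floor is set by the added 0.1, and some exon sequences are not reported here. The members and lists were chosen with earlier results of these data known. Of 24 folding and export genes 23 were matched by symbol. Coding features come from the transcript with the longest coding sequence. Calculations used Python 3.11.15, numpy 2.4.6, pandas 2.3.3, scipy 1.17.1 and matplotlib 3.10.9, and were tested on simulated data. Alternatives were 11 settings of pseudocount, scaling, filter and gene class, and another gene length for the chain ratios. The totals without mitochondrial or collagen genes used reads on genes in place of the size inside the FPKM.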

Additional observations from a re-analysis of the deposited data

Results flagged for a closer look

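Some of the values that lay on opposite sides of 0 in the lines were set apart, mainly of collagens, fibril partners and markers. In none of them was the difference tested over replicates. Among the members this was COL6A3, whose log2 ratio in U251 was 0.17 and in U87 was -0.55, where the U251 interval includes 0. Among the other collagens, COL16A1 was at 1.68 in U251 and -0.055 in U87, and COL17A1 was at 1.45 and -0.15. COL12A1 was at -1.03 in U251 and 0.12 in U87, and COL4A6, named after its values were seen, was at -0.56 and 0.18. COL21A1 was at -1.50 and 0.10, the latter from 3 and 4 reads. Among the fibril partners, THBS1 was at -0.52 and 1.13. Among the markers, S100A4 was at 0.78 in U251 and -0.68 in U87, and KDR was at -0.22 and 0.40. The U87 intervals of COL16A1, COL17A1, COL12A1, COL4A6, COL21A1, S100A4 and KDR include 0. Other genes of the lists also lay on opposite sides. Of those, named after their values were seen, PLOD2 was at -0.73 in U251 and 0.13 in U87, and EGR1 was at -0.40 and 0.37. The intervals of PLOD2 and EGR1 exclude 0 in both lines.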

How the results depend on the processing

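The number of members called stayed within 1.5 times of that reported under each of 11 alternatives in all 3 comparisons, and no member ratio past the minimum turned its direction. The log2 ratio of COL11A1 in U251 ranged from -3.24 to -2.19, and that of COL1A1 in U87 from -1.18 to -1.02. Scaling to the 75th percentile moved the median of all genes in U87 from -0.04 to 0.10 and that of COL6A1 from -0.24 to -0.09. No paired analysis was possible because each group holds 1 library, and none could be left out for the same reason. Of 267 recomputed member ratios, 36 moved by more than their counting error, and 38 of 654 counts of the other lists moved by over 1.5 times. COL3A1, COL5A3 and, in U87, COL11A1 are limited by depth.

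The counts over all genes moved with the pseudocount and the minimum. In U251 they were 705 lower and 435 higher, and became 419 and 197 with a pseudocount of 1, 2539 and 2424 with no filter, 1945 and 1782 where a minimum of 0.1 was used, and 323 and 150 with a minimum of 5, and 223 were higher among protein-coding genes. In U87 they were 183 lower and 249 higher, and became 77 and 113, 1804 and 2531, 1174 and 1627, and 45 and 38 under the same settings, and 64 and 32 among protein-coding genes. Between the Control libraries they were 2069 lower and 1873 higher, and became 5257 and 5283 with no filter, 4445 and 4400 with a minimum of 0.1, and 866 and 855 with a minimum of 5.

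The members' median of -1.11 in U251 became -1.03 without mitochondrial genes in the total, -1.03 without collagen genes in it, -0.72 with no filter and -0.84 with a minimum of 5. Both of these totals were of reads on genes, so those settings also changed the size per library, and the shift cannot be credited to the genes left out. In U87 the median of -0.45 became -0.58 with a pseudocount of 0.01, -0.30 with scaling to the 75th percentile, -0.30 with no filter and -0.55 with a minimum of 5. Between the Control libraries the median of -0.73 became 0.022 with no filter, which adds COL3A1 and COL5A3, and -0.090 with a minimum of 5, which removes COL11A1. With the transcript length, chosen after the data were seen, COL6A1 was at 0.797, 0.934, 0.683 and 0.686 times COL6A2 in U251 Control, U251 Bru, U87 Control and U87 Bru, at 221, 124, 1.15 and 1.43 times COL6A3, and COL5A1 was at 0.489 to 0.768 times COL5A2 over the 4 libraries.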
